A study of Mus musculus with 20 samples.

Results

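The genes of oxidative phosphorylation were followed through male meiosis in the mouse, from spermatogonia to round spermatids. A gene was a member if its only symbol in the array annotation begins with Nduf, Uqcr, Atp5 or one of Cox4 to Cox8, or is Sdha, Sdhb, Sdhc, Sdhd, Cycs, Cyc1 or Cyct. This rule used names alone and took 93 of the 18193 genes that have a probe set with a single symbol. They comprised 34 subunits of complex I, 8 assembly factors of complex I, 4 subunits of complex II, 9 of complex III, 16 of complex IV, 17 of complex V and the somatic cytochrome c gene Cycs. The 4 testis isoforms Cyct, Cox6b2, Cox7b2 and Cox8c were set apart. Each gene was read from the probe set with the highest mean over all arrays, and values are log2 of the GC-RMA signal, so that a difference of 1 is a doubling.

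Complexes I to IV of the inner mitochondrial membrane pass electrons from NADH and succinate to oxygen and, complex II apart, pump protons, and complex V uses the proton gradient to make ATP. Cytochrome c is the small soluble carrier between complexes III and IV. Most subunits are encoded in the nucleus by 1 gene used in all tissues, but cytochrome c and several small subunits of complex IV also have genes used mainly in the testis, and male germ cells are known for exchanging the somatic for the testis form.

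The 20 Affymetrix MOE430 version 2 arrays covered 8 fractions of cells from the testes of C57BL/6 x DBA/2J F1 males aged 10 to 16 weeks, sorted by FACS on the fluorescence of a Hoechst DNA dye. Spermatogonia and round spermatids had 4 arrays each, pre-leptotene and leptotene-zygotene cells 3 each, mid-pachytene and diplotene cells 2 each, and early- and late-pachytene cells 1 each. The labels name no mutation or treatment. Each array was a pool of several sorts, so p-values measure the spread between such pools. Below, the early arrays are the 10 of spermatogonia, pre-leptotene and leptotene-zygotene cells, and the late arrays are the 9 from mid-pachytene on, while the early-pachytene array belongs to neither.

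The fraction labels were set against marker genes. The summed signal of 5 spermatogonial markers (Zbtb16, Dmrt1, Kit, Uchl1, Gfra1) lay between 14.27 and 14.86 on the log2 scale in the early arrays and between 6.81 and 13.46 in the late arrays, where it was higher in diplotene replicate 1 (9.67) than in replicate 2 (8.41), and higher in round spermatid replicate 1 (9.67) than in the other 3 (6.81 to 7.99). The sum of 6 pachytene-diplotene markers (Piwil1, Mybl1, Ccna1, Hspa2, Pgk2, Ldhc) ran from 11.40 to 14.71 in the early arrays and was 15.87 or more in every late array. It was 12.55 to 14.54 in spermatogonia, highest in replicate 2, and lower in pre-leptotene replicates 1 and 3, at 11.40 and 11.75, than in replicate 2, at 12.62. Leptotene-zygotene cells had 13.63 to 14.71, with the top value in replicate 3. The spermatogonia went against their label in part: the sum of 6 round spermatid markers (Acrv1, Tnp1, Tnp2, Prm1, Prm2, Acr) was 15.35 to 17.25 there, which overlapped the 16.32 to 16.83 of round spermatids and exceeded the 14.55 to 15.14 of pre-leptotene cells, although Acrv1 and Acr themselves averaged 7.59 and 6.23 in spermatogonia against 13.34 and 12.89 in round spermatids. Macrophage markers (Ptprc, Csf1r, Cd68, Lyz2, Cd74) also summed higher in spermatogonia, at 10.28 to 12.49, and in pre-leptotene replicate 1, at 10.95, than in the other pre-leptotene and leptotene-zygotene arrays, at 5.19 to 7.36. Of 6 Sertoli cell markers (Sox9, Amh, Wt1, Rhox5, Clu, Gata1), Clu had the most signal (8.60 to 12.61), while Sox9, Amh and Gata1 reached at most 3.93, 1.74 and 2.79 in any array. Their sum ran from 11.00 to 12.63 in the early and from 8.76 to 12.62 in the late arrays, with 12.25 in diplotene replicate 1 against 10.21 in replicate 2 and 12.39 in round spermatid replicate 1 against 8.76 to 11.47 in the others. The sum of 4 Leydig cell markers ran from 5.32 to 8.31 and from 5.34 to 8.40 in early and late arrays, and that of 2 peritubular markers from 8.57 to 11.36 and from 7.83 to 10.64. The part of these cells in the results was not tested. In sorted fractions, fewer cells of a type and less RNA per cell cannot be told apart.

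The 4 testis isoforms rose together at the start of meiotic prophase and stayed high into round spermatids. Cyct encodes the testis form of cytochrome c. Its log2 signal was 9.64, 9.47, 8.92 and 10.08 in spermatogonia, 9.23, 8.93 and 9.15 in pre-leptotene cells, 10.76, 10.51 and 10.90 in leptotene-zygotene cells, 11.65 in early pachytene, 13.00 and 12.89 in mid-pachytene, 13.68 in late pachytene, 13.22 and 12.93 in diplotene cells and 12.004, 12.19, 12.22 and 12.12 in round spermatids. Every late array was above every early array. Cyct was highest in the late-pachytene array and lower again in all 4 round spermatid arrays. Across the late against the early fractions it rose by 3.17 (SE 0.16) on the log2 scale, a 9.01-fold difference (limma, adjusted p = 1.10e-10).

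Cycs, the somatic cytochrome c, ran the other way. Its log2 signal was 12.98, 12.48, 12.51 and 12.22 in spermatogonia, 13.06, 12.53 and 12.60 in pre-leptotene cells, 13.22, 12.39 and 12.60 in leptotene-zygotene cells, 12.38 in early pachytene, 11.96 and 10.28 in mid-pachytene, 9.26 in late pachytene, 9.76 and 7.11 in diplotene cells and 10.23, 8.34, 7.90 and 7.14 in round spermatids. The 9 late arrays lay beneath all 10 early arrays, with a wide spread: diplotene replicate 1 and round spermatid replicate 1, the 2 arrays with more signal from spermatogonial and Sertoli cell markers than their companions, held more Cycs signal, and the part of those cells in it was not tested. Both belonged to the same project of the study as mid-pachytene replicate 1, the higher of its fraction. Cycs fell by 3.36 (SE 0.43) on the log2 scale, or 10.3-fold (limma, adjusted p = 2.17e-06), and 2 further probe sets of the gene gave changes of -3.26 and -2.55.

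The testis and somatic genes are shown here with the sequence upstream of their starts, because they differ in CG dinucleotides. The 250 bases before the start of transcription, from the RefSeq promoter table on build GRCm38.p6, are printed 5′ to 3′ on the gene's strand with CG in capitals: Cyct at chr2:76360454-76360703, Cycs at chr6:50566570-50566819, Cox6b2 at chr7:4753095-4753344 and Cox6b1 at chr7:30626115-30626364, all on the minus strand.
Cyct: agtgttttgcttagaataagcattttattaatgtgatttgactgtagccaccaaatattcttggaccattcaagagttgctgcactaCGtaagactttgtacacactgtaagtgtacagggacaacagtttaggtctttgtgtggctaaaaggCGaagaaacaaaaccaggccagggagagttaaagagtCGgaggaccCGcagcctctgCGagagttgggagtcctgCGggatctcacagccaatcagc
Cycs: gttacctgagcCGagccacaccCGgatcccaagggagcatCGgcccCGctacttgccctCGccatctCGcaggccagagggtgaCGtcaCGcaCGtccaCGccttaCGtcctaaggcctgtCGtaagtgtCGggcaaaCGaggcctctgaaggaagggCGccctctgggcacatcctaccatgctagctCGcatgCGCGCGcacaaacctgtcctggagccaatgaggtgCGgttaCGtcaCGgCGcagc
Cox6b2: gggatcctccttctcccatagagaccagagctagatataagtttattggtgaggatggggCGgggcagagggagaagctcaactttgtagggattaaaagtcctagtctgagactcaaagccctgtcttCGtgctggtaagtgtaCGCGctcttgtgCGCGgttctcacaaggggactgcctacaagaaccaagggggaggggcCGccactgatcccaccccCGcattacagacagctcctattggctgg
Cox6b1: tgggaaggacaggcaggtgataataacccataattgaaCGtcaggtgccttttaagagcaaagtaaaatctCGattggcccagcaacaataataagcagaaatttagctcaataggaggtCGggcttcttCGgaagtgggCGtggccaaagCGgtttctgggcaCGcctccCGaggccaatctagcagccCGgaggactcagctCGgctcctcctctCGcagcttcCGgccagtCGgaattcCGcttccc
The printed stretches hold 6 CG for Cyct against 23 for Cycs, and 8 for Cox6b2 against 14 for Cox6b1. In the full 300-base window, which adds 50 bases after the start, the counts were 8 for Cyct, 10 for Cox6b2 and 10 for Cox7b2, against 32 for Cycs, 17 for Cox6b1 and 19 for Cox8a. The median was 20 (quartiles 15 and 27) over the promoters of the other members and 7 over all 32851 promoters in the table. Low counts were also found in other members, such as Ndufc2 (8), Cox7a1 (7) and Cox8b (2). The promoter table matched 76 of the 93 members and held none for Cox8c, so Cox8a stands here without its testis form.

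Cox6b2 and Cox6b1 encode the testis and the somatic form of subunit VIb, which joins the monomers of cytochrome c oxidase. The log2 signal of Cox6b2 was 10.34, 10.98, 9.98 and 9.99 in spermatogonia, 9.46, 10.94 and 9.78 in pre-leptotene cells, 11.21, 11.50 and 12.12 in leptotene-zygotene cells, 13.32 in early pachytene, 14.19 and 14.15 in mid-pachytene, 14.58 in late pachytene, 14.56 and 14.39 in diplotene cells and 14.31, 14.55, 14.51 and 14.08 in round spermatids. From mid-pachytene on, its arrays differed little from one another and all exceeded the early arrays. Cox6b2 rose by 3.73 (SE 0.22), 13.3-fold, between early and late fractions (limma, adjusted p = 4.80e-10).

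Cox6b1 gave log2 signals of 14.19, 13.55, 13.65 and 13.57 in spermatogonia, 14.08, 13.58 and 13.43 in pre-leptotene cells, 14.14, 13.47 and 13.40 in leptotene-zygotene cells, 13.39 in early pachytene, 13.19 and 11.78 in mid-pachytene, 11.20 in late pachytene, 10.94 and 9.21 in diplotene cells and 10.95, 9.81, 9.51 and 9.23 in round spermatids. All late arrays lay beneath the early ones, and replicate 1 was again the highest of the diplotene and of the round spermatid arrays. The gene fell by 2.79 (SE 0.30) on the log2 scale, or 6.93-fold (limma, adjusted p = 3.25e-07), and its other probe set gave -2.92.

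Cox8c is the testis form of subunit VIII of cytochrome c oxidase and Cox8a the form of most tissues. Cox8c had log2 signals of 7.34, 8.96, 6.59 and 7.99 in spermatogonia, 6.22, 8.26 and 6.83 in pre-leptotene cells, 9.38, 9.38 and 10.70 in leptotene-zygotene cells and 12.36 in early pachytene, and ran only from 12.47 to 12.92 in the 9 late arrays, with a median of 12.78. The early-pachytene array was already close to the late range. It rose by 4.56 (SE 0.33), 23.6-fold (limma, adjusted p = 4.07e-09), the highest estimate among the members tested.

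Cox8a had log2 signals of 10.41, 9.47, 9.36 and 10.27 in spermatogonia, 10.79, 10.07 and 9.62 in pre-leptotene cells, 10.89, 9.76 and 10.03 in leptotene-zygotene cells, 9.88 in early pachytene, 9.77 and 8.54 in mid-pachytene, 7.01 in late pachytene, 6.37 and 4.96 in diplotene cells and 7.29, 6.02, 5.54 and 4.99 in round spermatids. Mid-pachytene replicate 1 overlapped the early arrays, and the other 8 late arrays were lower than all of them. Cox8a fell by 3.14 (SE 0.34) on the log2 scale, or 8.80-fold (limma, adjusted p = 4.19e-07), and another probe set of it gave -3.26.

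Cox7b2 encodes the testis form of subunit VIIb. Its log2 signal was 9.96, 9.80, 9.85 and 9.50 in spermatogonia, 9.79, 9.57 and 8.94 in pre-leptotene cells, 10.78, 10.80 and 11.00 in leptotene-zygotene cells, 12.34 in early pachytene, 12.67 and 12.90 in mid-pachytene, 13.31 in late pachytene, 13.23 and 13.11 in diplotene cells and 12.91, 12.90, 12.85 and 12.22 in round spermatids. No late array reached down to the early ones. Cox7b2 rose by 2.97 (SE 0.16), 7.85-fold (limma, adjusted p = 1.91e-10), and its somatic counterpart Cox7b was not analysed here.

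**Figure D1:**
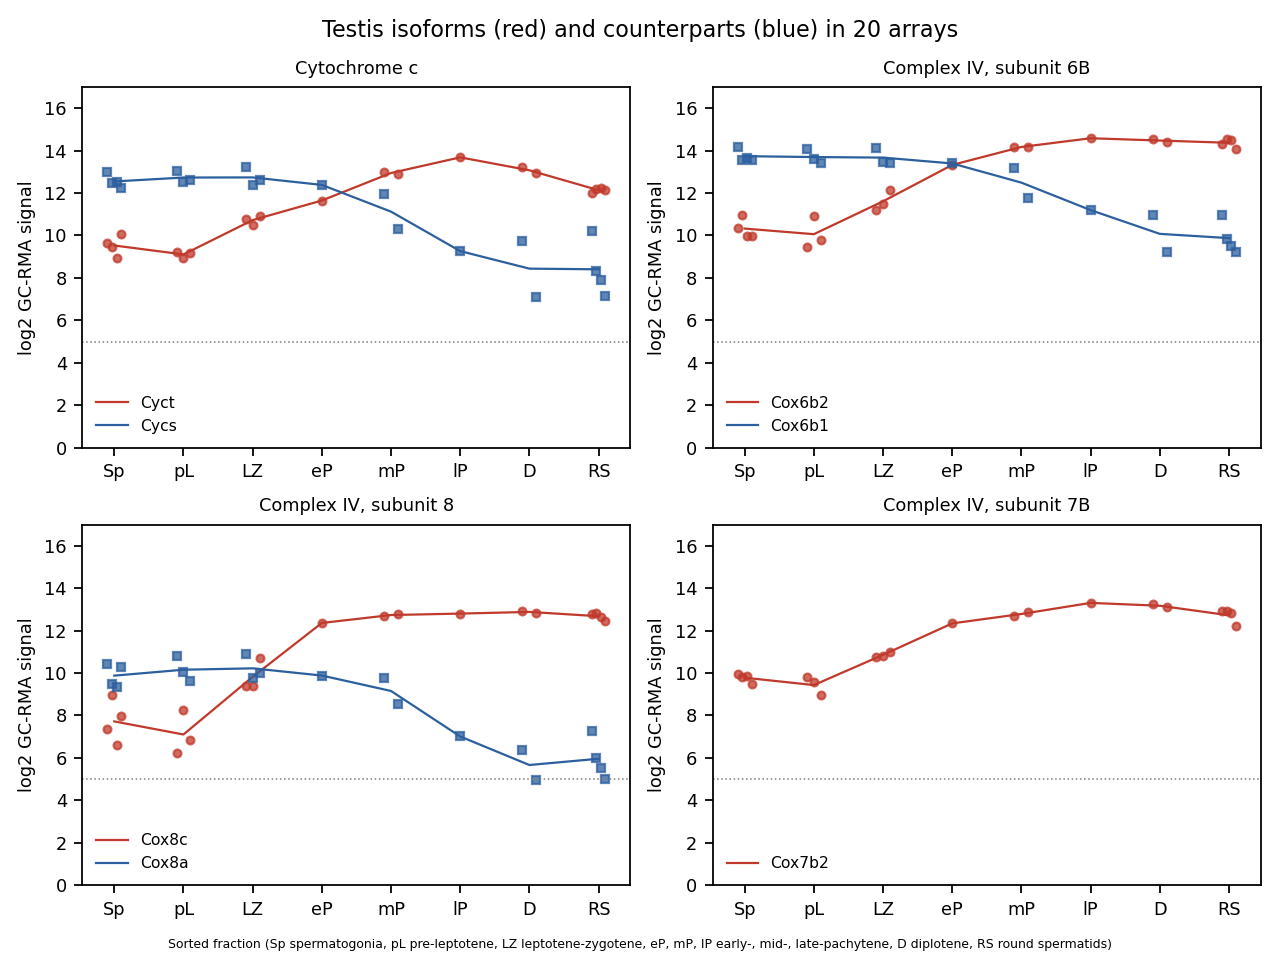
Log2 GC-RMA signal of the testis isoforms and their somatic counterparts in each of the 20 arrays, by fraction in the order of spermatogenesis. Points are arrays, lines join fraction means, and the dotted line is the filter at 5. Each testis isoform climbs from leptotene-zygotene cells to pachytene, while Cycs, Cox6b1 and Cox8a fall from mid-pachytene on, to round spermatid means of 8.40, 9.87 and 5.96. Heights are comparable only within a gene.

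The unequal change of the testis and somatic gene was tested within arrays for 3 pairs, by the log2 difference of testis minus somatic probe set. Only the change of this difference has a meaning, since levels of separate probe sets are not on 1 scale. For Cyct and Cycs the difference averaged -2.90 (SD 0.79, n = 10) in the early arrays, where it ran from -3.83 to -1.70, and 3.58 (SD 1.54, n = 9) in the late arrays, where it ran from 1.03 to 5.81. For Cox6b2 and Cox6b1 it averaged -3.07 (SD 0.99, n = 10), from -4.61 to -1.28, and then 3.72 (SD 1.40, n = 9), from 0.99 to 5.18. For Cox8c and Cox8a it averaged -1.90 (SD 1.54, n = 10), from -4.57 to 0.68, and then 6.03 (SD 1.61, n = 9), from 2.92 to 7.88. Late and early arrays did not overlap in any of the 3 pairs. The early-pachytene array lay between them each time, at -0.74, -0.07 and 2.48.

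These differences moved by 6.48, 6.80 and 7.93 on the log2 scale, and each gave p = 1.08e-05 in an exact two-sided permutation test over the 92378 splits of 19 arrays, which is the smallest p those splits allow and stayed the same after Benjamini-Hochberg adjustment over the 3 pairs. The arrays came from 6 projects of the study, 4 of which held both early and late arrays. Within those 4 the change was 6.12 to 7.63 for Cyct against Cycs, 6.16 to 7.69 for Cox6b2 against Cox6b1 and 6.79 to 8.94 for Cox8c against Cox8a. Without the spermatogonia arrays it was 6.40, 6.57 and 7.76 (exact permutation p = 0.0002 each, the smallest those splits allow).

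The rise was first called between pre-leptotene and leptotene-zygotene cells. In the step before, from spermatogonia to pre-leptotene cells, limma called no member, nor was any under an unadjusted p of 0.05, beside 0.686% of all genes called (0.0502% higher, 0.636% lower). In the step itself 4 of the 89 tested members passed, all upward and all testis isoforms, beside 2.59% of all genes called (2.51% higher, 0.0837% lower). Cox8c rose by 2.72 (SE 0.55, adjusted p = 0.0234), Cyct by 1.62 (SE 0.26, adjusted p = 0.00983), Cox6b2 by 1.55 (SE 0.37, adjusted p = 0.0414) and Cox7b2 by 1.42 (SE 0.26, adjusted p = 0.0165) in limma. No other member passed, and the next, Ndufaf3, missed the threshold at a difference of 1.83 (adjusted p = 0.0714).

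These 4 calls rested on few arrays. Leptotene-zygotene replicate 3 held the most signal of pachytene-diplotene markers among the early arrays and the most Cyct, Cox6b2, Cox7b2 and Cox8c. Without it limma called 0 members, with 5 at an unadjusted p under 0.05, and the differences were 2.28 for Cox8c (adjusted p = 0.161), 1.53 for Cyct (adjusted p = 0.0555) and 1.30 for Cox6b2 (adjusted p = 0.265). Without pre-leptotene replicate 1 or 3, 2 and 1 members were called, and limma fitted to the arrays of these fractions alone called 0, with 5 at an unadjusted p under 0.05. The calls over all probe sets dropped as well, from 2.02% in the main fit to 0.161% without leptotene-zygotene replicate 3. They were 0.260% and 0.292% without pre-leptotene replicate 1 or 3, and 0% in the fit to these fractions alone.

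Between leptotene-zygotene and mid-pachytene cells limma called 8 members higher and 4 lower, 12 of 89 (13.5%), beside 33.3% of all genes (16.2% higher, 17.1% lower). The testis isoforms rose again, Cox8c by 2.91 (adjusted p = 0.00311), Cox6b2 by 2.56 (adjusted p = 0.00055), Cyct by 2.22 (adjusted p = 0.000153) and Cox7b2 by 1.93 (adjusted p = 0.000422). Ndufaf3 rose most, by 3.08 (SE 0.56, adjusted p = 0.00113), and Ndufa4l2, Ndufb5 and Ndufc1 completed the list. Ndufa4l2 stayed under the filter of 5 in every array of these fractions, and their ranges overlapped. Ndufaf4 fell by 1.75 (adjusted p = 0.00527), with Cox7a1, Ndufaf6 and Atp5mpl. Without mid-pachytene replicate 2 the count was 5, all higher. With the project of the array as a block it was 32, 10 higher and 22 lower, and included all 12. The share of all probe sets called also rose with this block, from 28.9% to 40.6%.

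After mid-pachytene the main fit called more members lower than higher, as it did over all genes. The shares of members called were under those of all genes. Between mid-pachytene and diplotene cells 2 members rose and 13 fell (limma), 15 of 89 (16.9%), beside 22.4% of all genes (7.11% higher, 15.3% lower). After median centring 4 rose and 10 fell, so that rises made up 28.6% rather than 13.3% of the calls. Those that fell included Ndufb11 by 3.64 (SE 0.97, adjusted p = 0.015), Cox8a by 3.49 (SE 0.70, adjusted p = 0.00255), Ndufa4 by 2.93 (SE 0.74, adjusted p = 0.0114) and Cycs by 2.69 (adjusted p = 0.0391) on the log2 scale. Ndufa4l2 rose by 3.38 (SE 0.57, adjusted p = 0.000786) and Ndufb1 by 1.11. Without mid-pachytene replicate 1 the count was 7 and without diplotene replicate 2 it was 5, and Ndufb11 and Ndufa4 passed in neither. Replicate 1 of both fractions came from the same project of the study, and replicate 2 of both from another. With the array project as a block the count was 21, 2 higher and 19 lower, and included all 15. That fit called 30.4% of all probe sets, against 19.3% in the main fit. A limma fit to these 4 arrays alone called 0, with 12 at an unadjusted p under 0.05, beside 2.04% of all probe sets called. No testis isoform was among the 15.

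Between diplotene cells and round spermatids limma called 2 members higher and 11 lower, 13 of 89 (14.6%), beside 27.7% of all genes (13.5% higher, 14.2% lower). After median centring 3 rose and 5 fell, and the share of rises moved from 15.4% to 37.5%. Cyct fell by 0.94 on the log2 scale (adjusted p = 0.0213), the only testis isoform called in this step, where the estimates of all 4 were negative (median -0.33). Cox7c, a small subunit of complex IV, fell by 1.67 (SE 0.37, adjusted p = 0.00347), Cyc1 by 1.29 (adjusted p = 0.00867) and Atp5g3 by 1.24 (adjusted p = 0.00545), and Cox4i1, a core nuclear subunit of complex IV, by 0.59 (adjusted p = 0.048). The probe set of Cox7c had a low signal, with a mean of 6.05 over the arrays. The mean of the probe sets of Cox7c gave -0.77 (limma, adjusted p = 0.110), and without diplotene replicate 1 Cox7c stood at -1.37. Atp5mpl and Ndufb1 rose by 0.92 and 0.75. Without diplotene replicate 1, 2 members were called, both higher, and Cyc1 stood at -0.82 (limma, adjusted p = 0.198) and Atp5g3 at -0.84 (adjusted p = 0.139). Without diplotene replicate 2, 11 were called, all lower, and Atp5mpl stood at 0.61 (adjusted p = 0.290) and Ndufb1 at 0.77 (adjusted p = 0.129). Ndufb1 also missed the threshold with the array project as a block (0.70, adjusted p = 0.0879). Without round spermatid replicate 3, 8 members were called. A fit to the arrays of these fractions alone called 2.

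**Figure D2:**
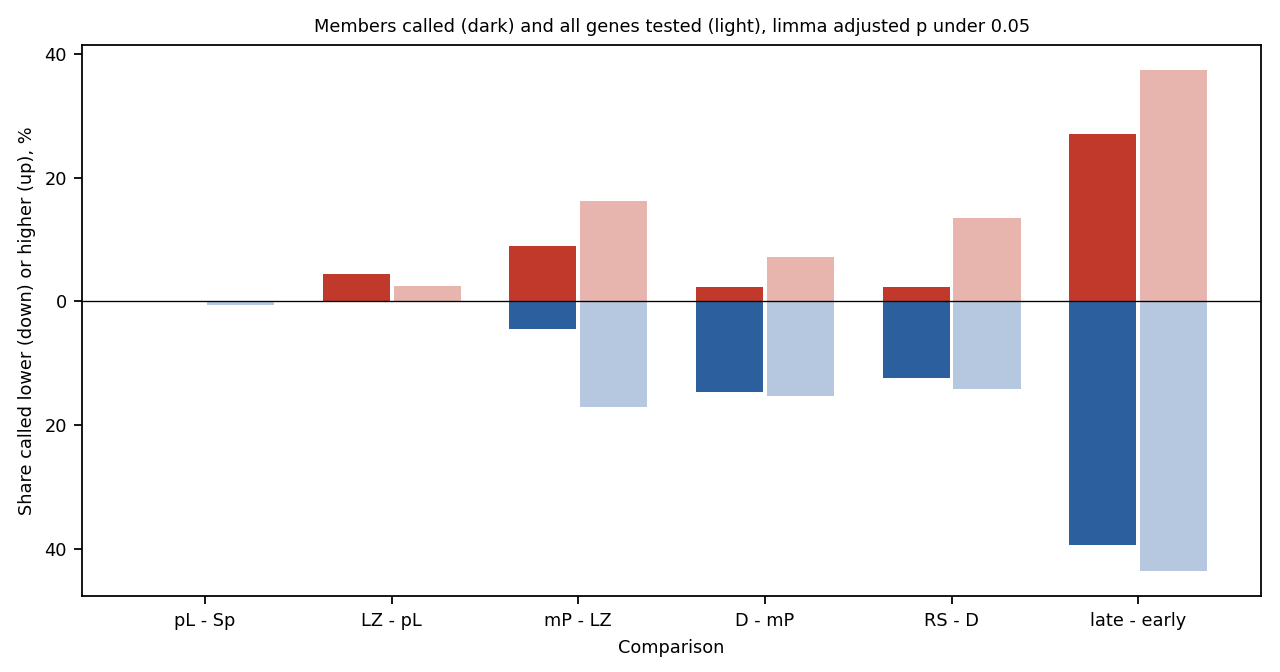
Bars give the percent of the 89 tested members (dark), and of all 11952 genes tested with 1 probe set each (light), called higher (up, red) or lower (down, blue) by limma at an adjusted p under 0.05 in each comparison, with fractions abbreviated by their initials. The share of members is 0 against 0.686% in the first step, 4.49% against 2.59% in the second, under that of all genes in the next 3, and 66.3% against 80.9% for late against early fractions.

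Across late against early fractions, 24 members rose and 35 fell (limma, 59 of 89, 66.3%), beside 80.9% of all genes (37.3% higher, 43.6% lower). The 4 members left untested, Ndufb4, Cox4i2, Cox6a2 and Cox8b, did not reach a log2 signal of 5 in 2 arrays. The median change of the members was -0.26, beside -0.18 over all genes, and their median absolute change was 0.67, beside 1.44. Members and all genes were not matched for signal level. With values under 5 set to 5, limma called 60 members, and the share of all probe sets called went from 77.3% to 69.8%. The absolute change was under 1 for 59 members, while 6 rose and 11 fell by more than 2 on the log2 scale. Late and early arrays did not overlap for 26 members (29.2%), 11 higher and 15 lower, beside 37.1% of all genes (15.9% higher, 21.2% lower). The split of calls moved with the scaling: after centring each array on its median, which took the median of all probe sets from -0.25 to 0.01, 34 members rose and 27 fell, so that rises made up 55.7% rather than 40.7% of the calls. Without the spermatogonia arrays 53 members were called, all among the 59.

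**Figure D3:**
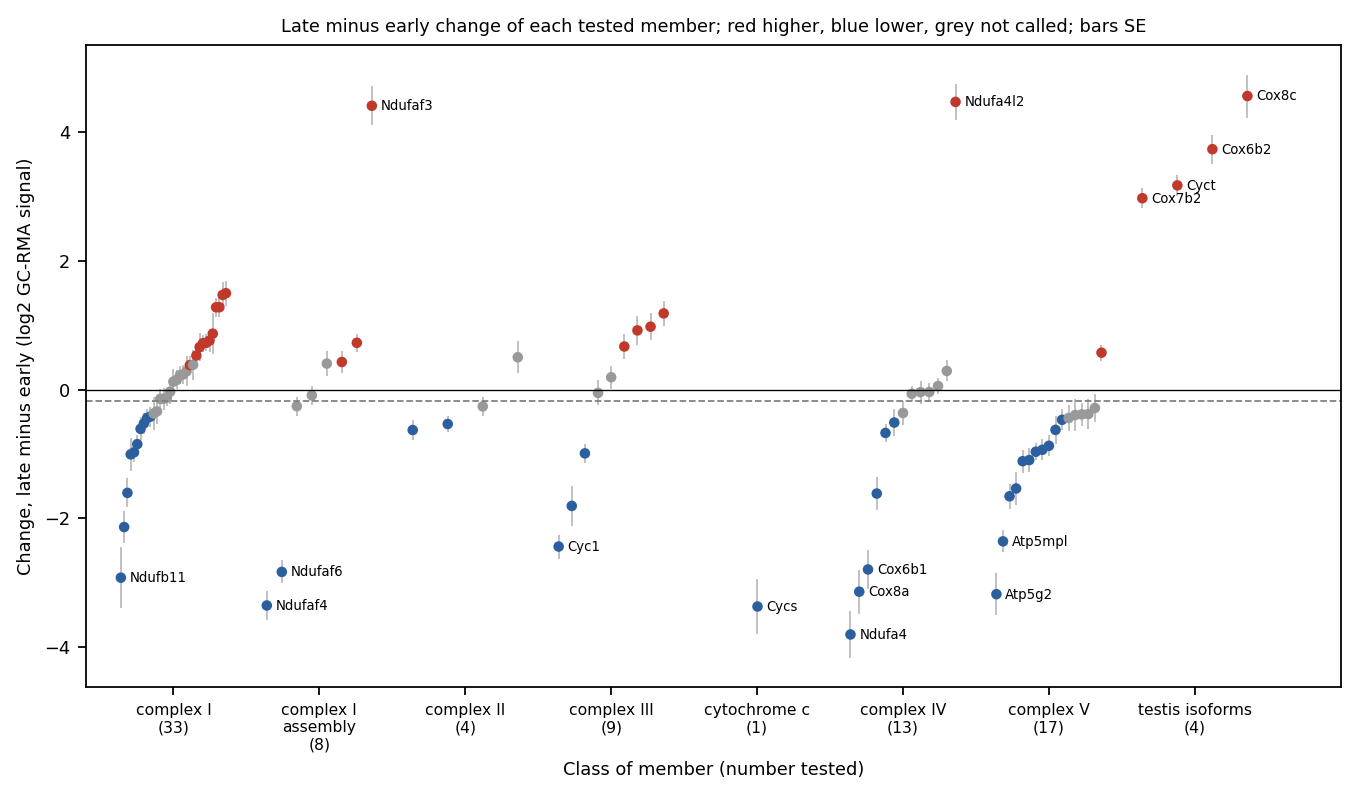
Change of each tested member from early to late fractions on the log2 scale (vertical axis), by class with the number tested (horizontal axis). Points are estimates of limma, red called higher, blue called lower and grey not called, bars are SE, and the dashed line is the median of all genes at -0.18. The testis isoforms, Ndufaf3 and Ndufa4l2 stand at 2.97 to 4.56, far above the other members, and Ndufa4, Cycs, Ndufaf4, Atp5g2 and Cox8a at -3.80 to -3.14.

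The counts by complex stand beside the 37.3% of all genes that were higher and the 43.6% that were lower, and differences between complexes were not tested. Of the 33 complex I subunits tested, 11 rose, 10 fell and 12 did not pass, with a median change of 0.12. The assembly factors of complex I gave 3, 2 and 3 of 8 (median 0.16), complex II gave 0, 2 and 2 of 4 (median -0.40), complex III gave 4, 3 and 2 of 9 (median 0.19), and complex IV without its testis isoforms gave 1, 6 and 6 of 13 (median -0.36). In complex V, 1 rose, 11 fell and 5 did not pass, with a median of -0.87. The balance within complex I turned with the scaling: it was 16 rises to 6 falls after median centring and 10 to 10 after quantile normalization. The falls kept the majority in complex V, with 1 rise each time and 9 and 13 falls, and in complex IV, with 3 rises and 5 falls, and 2 and 5.

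**Figure D4:**
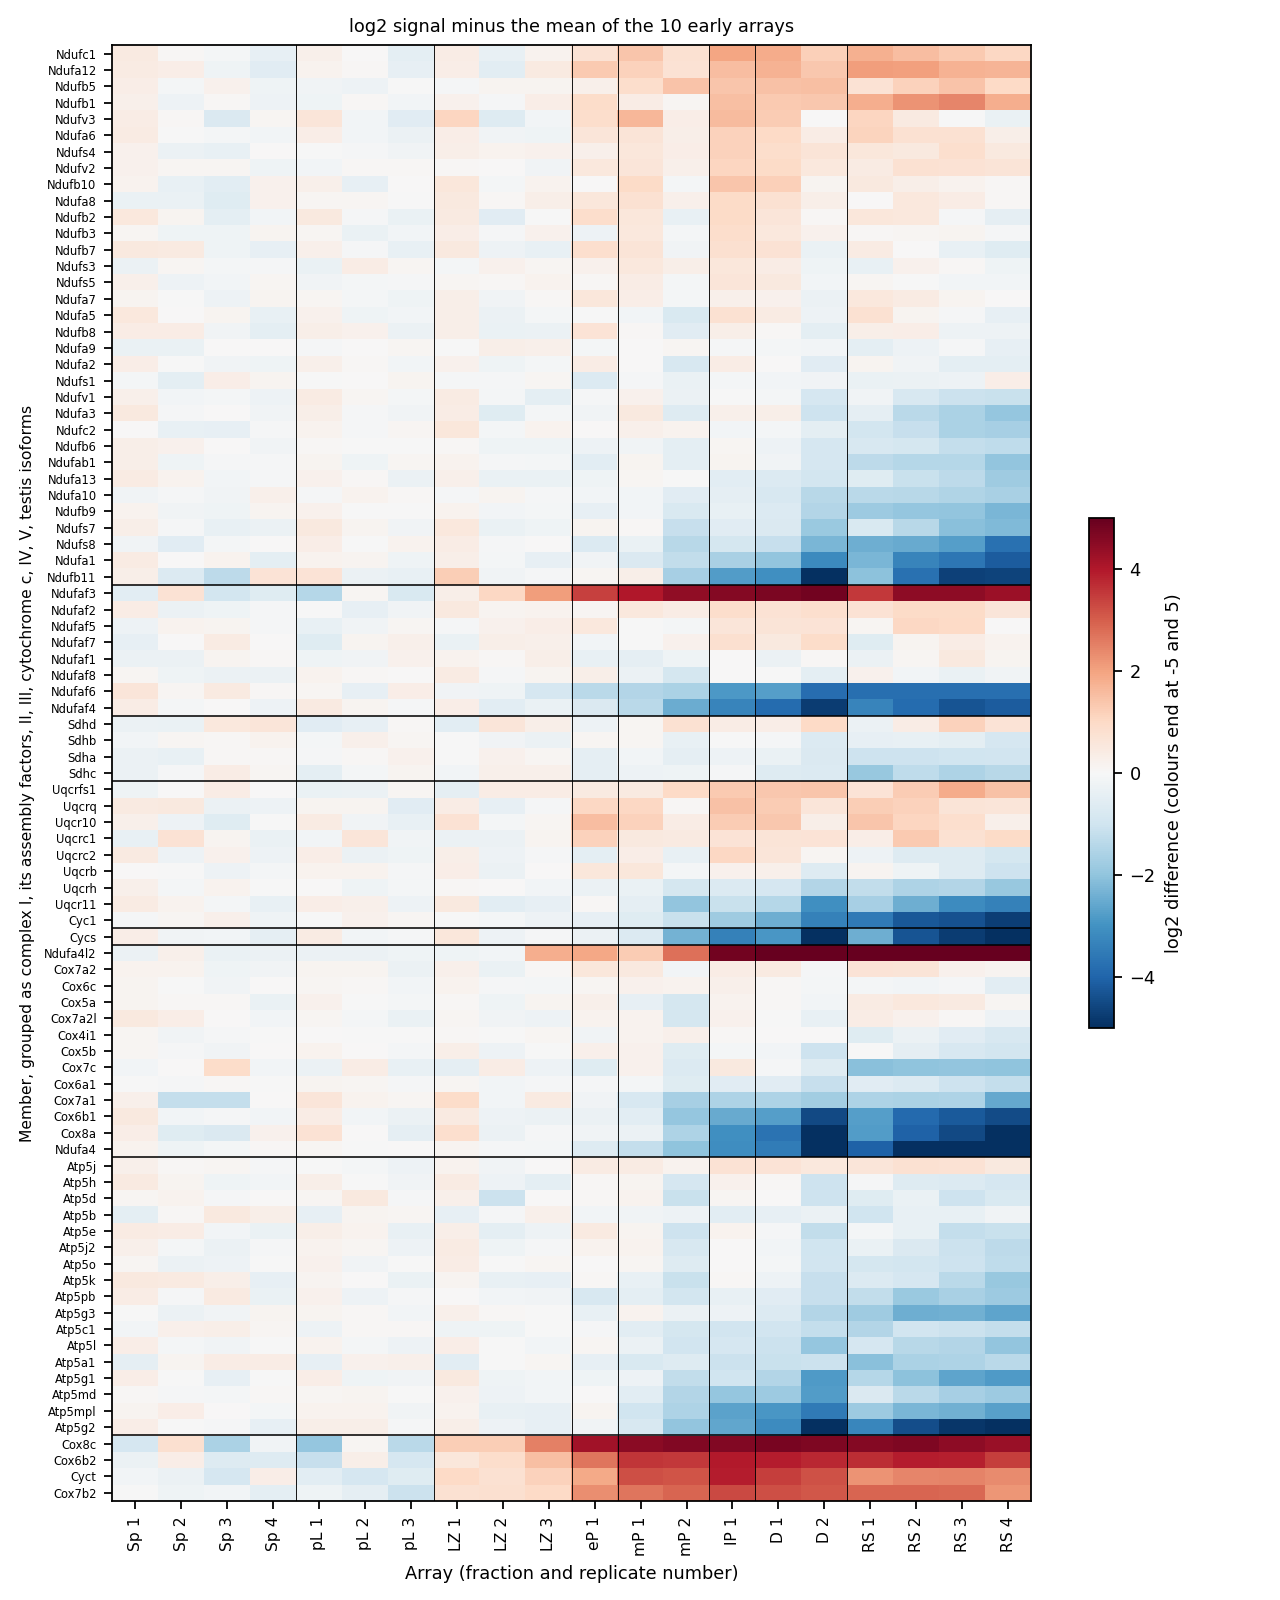
Log2 signal of the 89 tested members (rows, grouped by class) in each of the 20 arrays (columns), as the difference from the mean of the 10 early arrays, red above and blue under it, with colours ending at -5 and 5. The early columns are pale except for Ndufaf3, Ndufa4l2, Cox8c and a few others, and from mid-pachytene on several rows turn blue while the testis isoforms, Ndufaf3 and Ndufa4l2 turn red.

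By fraction means, round spermatids were the lowest fraction for 42 of the 89 tested members, late pachytene the highest for 28 and mid-pachytene the highest for 1. Late pachytene had 1 array, so its mean is a single value, and the same counts over all genes were not made. In complex I, which oxidises NADH, the rises were modest. Ndufc1 ran from 11.62 to 12.55 (median 12.15) in the early and from 12.86 to 14.06 (median 13.50) in the late arrays, which did not overlap, and rose by 1.50 (SE 0.19, limma, adjusted p = 2.98e-06). Ndufa12 rose by 1.47 and Ndufb5 by 1.28, also without overlap, and 3 of the 4 probe sets of Ndufa12 rose while 1 of low signal fell. It was the only member with opposite calls among the 43 with more than 1 tested probe set. Ndufb1 rose by 1.28, with fraction means of 7.65 in mid-pachytene and 9.50 in round spermatids. Ndufs8, an iron-sulfur subunit of the core, fell by 1.60 (SE 0.23) on the log2 scale (limma, adjusted p = 7.66e-06).

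The complex I genes on the X chromosome, Ndufa1 and Ndufb11, showed the largest falls of that complex. The sex chromosomes are known to be silenced in pachytene spermatocytes, and the part of this in the values here was not tested. Ndufa1 was at 13.57, 13.16, 13.34 and 12.68 in spermatogonia, 13.34, 13.31 and 12.94 in pre-leptotene cells, 13.47, 13.05 and 12.75 in leptotene-zygotene cells, 12.99 in early pachytene, 12.42 and 11.91 in mid-pachytene, 11.53 in late pachytene, 11.19 and 9.99 in diplotene cells and 10.86, 9.85, 9.56 and 8.999 in round spermatids. All late arrays were lower than all early arrays, and the decline was gradual. Ndufa1 fell by 2.13 (SE 0.25) on the log2 scale (limma, adjusted p = 1.13e-06).

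Ndufb11 was more scattered. It ran from 9.75 to 12.27 (median 10.94) in the early arrays, stood at 11.14 in early pachytene, 11.33 and 9.38 in mid-pachytene, 8.27 in late pachytene and 7.97 and 5.46 in diplotene cells, and at 9.01, 7.32, 6.38 and 6.41 in round spermatids. Mid-pachytene replicate 1 lay within the early range and replicate 2 beneath it. Ndufb11 fell by 2.92 (SE 0.48) on the log2 scale (limma, adjusted p = 3.63e-05). The autosomal members Cycs and Ndufa4 fell by 3.36 and 3.80.

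The assembly factors of complex I split widely. Ndufaf3 was at 7.45, 8.71, 7.09 and 7.37 in spermatogonia, 6.56, 8.10 and 7.21 in pre-leptotene cells, 8.27, 9.02 and 10.07 in leptotene-zygotene cells, 11.42 in early pachytene, 11.998 and 12.41 in mid-pachytene, 12.59 in late pachytene, 12.68 and 12.83 in diplotene cells and 11.52, 12.47, 12.44 and 12.27 in round spermatids. Late and early arrays did not overlap, and within the early fractions spermatogonia replicate 2, pre-leptotene replicate 2 and leptotene-zygotene replicate 3 were the highest, as they were for Cox8c. Ndufaf3 rose by 4.41 (SE 0.30), 21.2-fold (limma, adjusted p = 1.89e-09). Ndufaf2 rose by 0.73 and Ndufaf5 by 0.43 (adjusted p = 0.0335), a call that did not hold when any of several single arrays was left out.

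Ndufaf4 took the opposite course. Its signal was 9.92 to 10.89 (median 10.43) in the early arrays, 9.71 in early pachytene, 9.09 and 7.96 in mid-pachytene, 7.16 in late pachytene, 6.60 and 5.72 in diplotene cells and 7.17, 6.58, 6.14 and 6.30 in round spermatids. Late and early arrays were apart. It fell by 3.35 (SE 0.22) on the log2 scale, or 10.2-fold (limma, adjusted p = 1.27e-09). Ndufaf6, with a low mean signal of 4.85 over the arrays, fell by 2.83, and by 1.26 when values under 5 were set to 5.

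Complex II, succinate dehydrogenase, belongs to the citric acid cycle as well. Sdha, its flavoprotein, ran from 11.58 to 12.18 (median 12.01) in the early and from 10.90 to 11.80 (median 11.23) in the late arrays and fell by 0.53 (SE 0.13) on the log2 scale (limma, adjusted p = 0.00147), and Sdhc, a membrane anchor, fell by 0.63 (adjusted p = 0.00139). The ranges of early and late arrays overlapped for both. Sdhb did not pass at -0.26 (95% interval -0.57 to 0.04), nor did Sdhd at 0.50 (-0.02 to 1.02). Both lay near the threshold: Sdhb passed after quantile normalization at -0.40 (limma, adjusted p = 0.0200) and Sdhd after median centring at 0.76 (adjusted p = 0.0105), and both passed with the array project as a block, at -0.37 (adjusted p = 0.0492) and 0.59 (adjusted p = 0.00823). Sdha missed the threshold after median centring, at -0.28 (adjusted p = 0.069).

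Complex III passes electrons to cytochrome c, and its subunits moved in both directions. Cyc1, cytochrome c1, was at 12.60, 12.74, 12.91 and 12.46 in spermatogonia, 12.63, 12.87 and 12.77 in pre-leptotene cells, 12.63, 12.56 and 12.41 in leptotene-zygotene cells, 12.27 in early pachytene, 12.06 and 11.56 in mid-pachytene, 10.88 in late pachytene, 10.21 and 9.27 in diplotene cells and 9.14, 8.41, 8.30 and 7.94 in round spermatids. The early arrays were close together and every late array was lower, with round spermatids lowest. Cyc1 fell by 2.44 (SE 0.19) on the log2 scale, or 5.41-fold (limma, adjusted p = 6.41e-09). Uqcrfs1, the Rieske iron-sulfur protein, ran from 10.04 to 10.84 in the early and from 10.91 to 12.33 in the late arrays and rose by 1.18 (SE 0.19, adjusted p = 2.77e-05). Uqcrq and Uqcr10 rose by 0.98 and 0.92, and the other probe sets of Uqcr10 gave 1.90 and 3.56. Uqcr11 and Uqcrh fell by 1.81 and 0.99.

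In complex IV, cytochrome c oxidase, the widest contrast outside the testis isoforms was between Ndufa4, now counted as a subunit of that complex, and its paralog Ndufa4l2. Ndufa4 was at 12.48, 12.10, 12.20 and 12.35 in spermatogonia, 12.39, 12.28 and 12.32 in pre-leptotene cells, 12.42, 12.26 and 12.20 in leptotene-zygotene cells, 11.66 in early pachytene, 11.10 and 10.28 in mid-pachytene, 9.18 in late pachytene, 8.80 and 6.72 in diplotene cells and 8.24, 6.43, 5.38 and 5.45 in round spermatids. It fell by 3.80 (SE 0.37) on the log2 scale, 13.9-fold (limma, adjusted p = 9.36e-08), the lowest estimate among the members tested. The early arrays spanned only 12.10 to 12.48, and diplotene replicate 1 and round spermatid replicate 1 were again above their companions.

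Ndufa4l2 was at 1.82 to 2.40 in 9 early arrays, near the floor, and at 3.95 in leptotene-zygotene replicate 3. It then stood at 4.09 in early pachytene, 3.43 and 4.91 in mid-pachytene, 6.96 in late pachytene, 7.64 and 7.46 in diplotene cells and 7.40, 8.21, 8.14 and 7.71 in round spermatids. Leptotene-zygotene replicate 3 was above mid-pachytene replicate 1, and otherwise late arrays were higher than early ones. Ndufa4l2 rose by 4.47 (SE 0.28) on the log2 scale (limma, adjusted p = 8.38e-10), a value that shrank to 1.84 when signals under 5 were set to 5. Its largest step, 3.38, was between mid-pachytene and diplotene cells, where no testis isoform passed the test.

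The other complex IV subunits moved less than the testis isoforms. Cox4i1 ran from 14.28 to 14.56 in the early and from 13.66 to 14.70 in the late arrays, with a difference of -0.06 (95% interval -0.32 to 0.19) that did not pass and turned positive after quantile normalization (0.062) and median centring (0.19). Cox7a2 stood at 0.29 (-0.06 to 0.64), but passed after quantile normalization (0.39, limma, adjusted p = 0.0351) and median centring (0.54, adjusted p = 0.00731), and its other probe set rose by 0.66 (adjusted p = 0.00119). Cox7a2l stood at -0.04 (-0.41 to 0.34). Cox6a1 fell by 0.67 (adjusted p = 0.000563). The isoforms of heart and skeletal muscle, Cox6a2 and Cox8b, and the lung isoform Cox4i2 stayed between 1.90 and 4.00 in all arrays and were not tested. Cox7a1, also of muscle, fell by 1.61, and by 0.84 with signals under 5 set to 5. Cox7c, read here from a probe set of low signal, passed at -0.51 (adjusted p = 0.0347) but not after quantile normalization (-0.22) or median centring (-0.26).

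In complex V, the ATP synthase, 3 genes encode the same mature subunit c of the rotor ring. Atp5g2 was at 12.33, 11.99, 11.92 and 11.58 in spermatogonia, 12.28, 12.27 and 11.93 in pre-leptotene cells, 12.30, 11.74 and 11.58 in leptotene-zygotene cells, 11.83 in early pachytene, 11.18 and 10.00 in mid-pachytene, 9.40 in late pachytene, 8.84 and 6.84 in diplotene cells and 8.74, 7.55, 7.13 and 6.36 in round spermatids. No late array reached the early ones, and the drop of 3.18 (SE 0.33) on the log2 scale was 9.04-fold (limma, adjusted p = 2.25e-07). Atp5g1 fell by 1.53 (SE 0.25, adjusted p = 3.88e-05) and Atp5g3 by 0.93 (SE 0.17, adjusted p = 8.14e-05), with overlapping arrays in both. The course of Atp5g3 was the latest, with fraction means of 13.06 in mid-pachytene, 12.05 in diplotene cells and 10.82 in round spermatids.

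Atp5j, a subunit of the stalk, was the only complex V gene that rose, by 0.57 (SE 0.12, limma, adjusted p = 0.000497), with early arrays from 11.97 to 12.51 and late arrays from 12.41 to 13.01. The small membrane subunits Atp5mpl and Atp5md fell by 2.36 and 1.66. The mean of Atp5mpl was 9.32 in diplotene cells and 10.24 in round spermatids, the rise called in that step, and that of Atp5md was 10.66 and 11.59, a difference that did not pass.

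**Figure D5:**
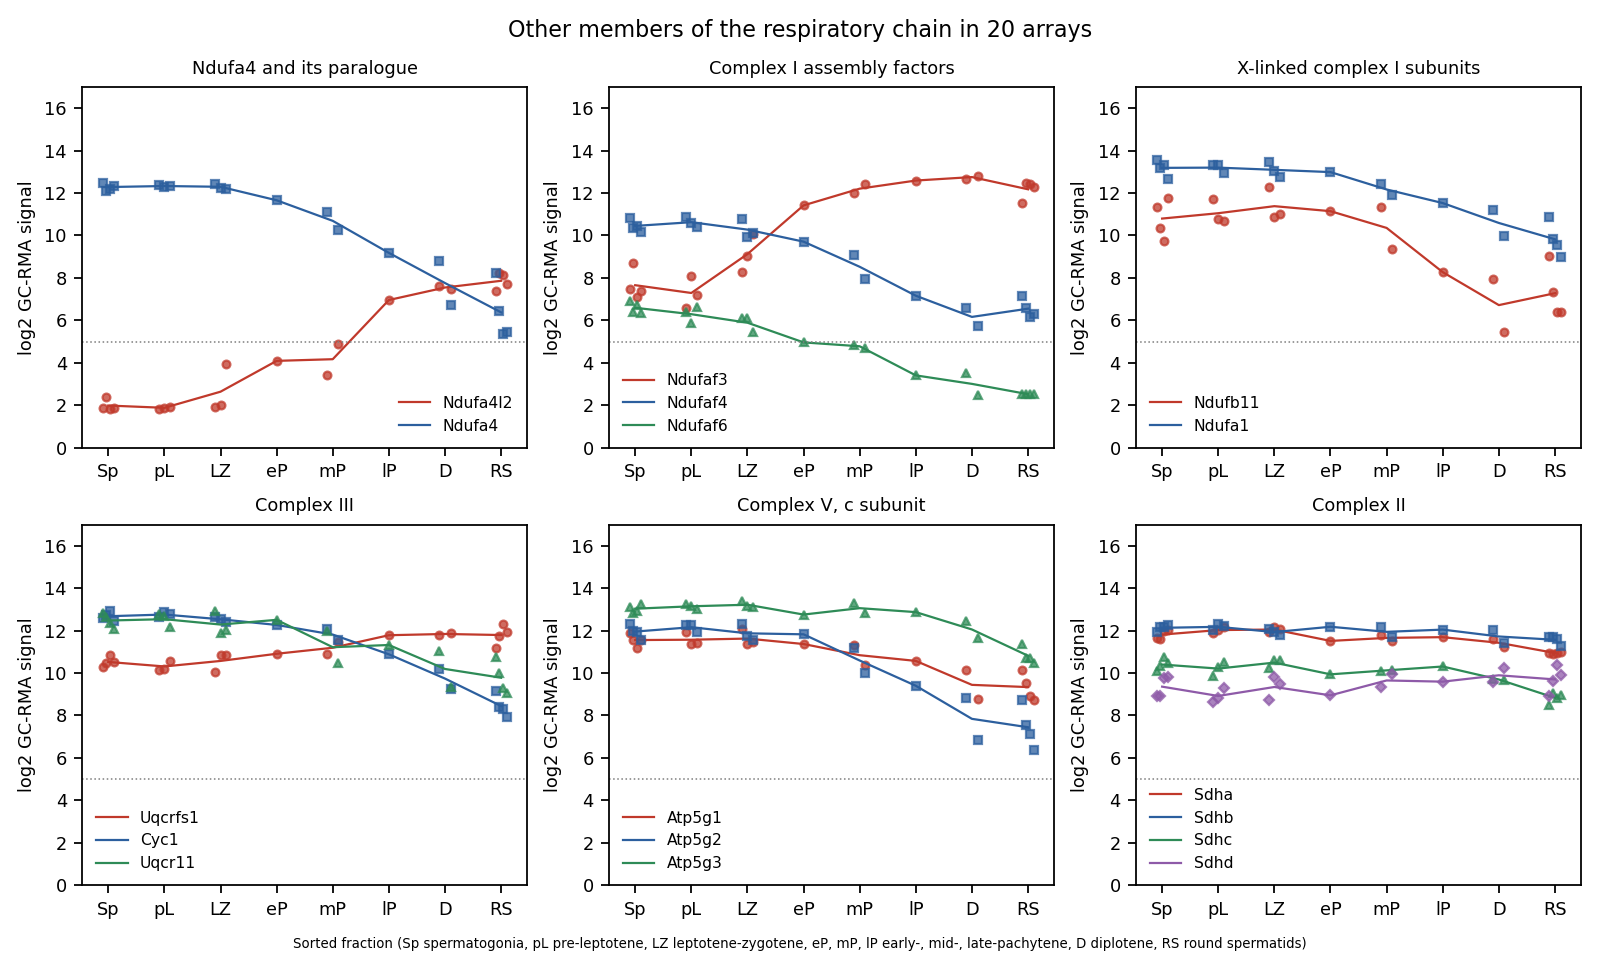
Log2 GC-RMA signal of other members in each of the 20 arrays by fraction, with panels for Ndufa4 and its paralog, assembly factors, X-linked subunits, complex III, the subunit c genes and complex II. Points are arrays, lines join fraction means, and the dotted line is the filter at 5. Ndufa4 falls to 6.38 and Ndufa4l2 climbs to 7.86 in the means of round spermatids, Ndufaf4 falls to 6.55 while Ndufaf3 stands at 12.18, and the 4 Sdh genes stay between 8.83 and 12.18. Heights are comparable only within a gene.

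Genes that feed and build the respiratory chain were counted in the same way. Of 17 tested genes of the citric acid cycle and pyruvate dehydrogenase, 6 rose, 8 fell and 3 did not pass (median change -0.08), beside 37.3% of all genes higher, 43.6% lower and a median of -0.18. Pdha2, the testis form of the E1 alpha subunit of pyruvate dehydrogenase, rose by 4.42, and its X-linked somatic form Pdha1 fell by 2.53 on the log2 scale. Idh3g, Suclg2 and Mdh2 fell by 3.97, 3.57 and 3.35, while Suclg1 and Dlat rose by 2.17 and 2.05. Of 11 genes for assembly of cytochrome oxidase, 4 rose and 4 fell, with Cox16 (2.77) and Lrpprc (-2.03) at the ends. Of 5 assembly and regulatory factors of complexes III and V, 2 rose and 3 fell, the latter Bcs1l, Ttc19 and Atpaf1 by 3.48, 3.11 and 1.07. After median centring the citric acid cycle list gave 8 rises and 8 falls and the oxidase list 5 and 3.

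Of 12 tested regulators of mitochondrial transcription and biogenesis, 2 rose and 9 fell (median -1.33), beside the same 37.3% and 43.6% of all genes (median -0.18), counts that quantile normalization and median centring left at 2 and 9. Pprc1, a coactivator, fell by 4.38, Gabpb1, a subunit of the ETS factor NRF2, by 3.51 and Tfam, which packages mitochondrial DNA, by 2.88, and Esrra and Tfb1m rose by 1.63 and 1.31. Motifs of such factors were searched on both strands of the 300-base promoters. A 10-base NRF1 motif was found in 6 of 76 members (7.89%), beside 1.07% of 27025 genes, the ETS motif ACTTCCGG in 5 (6.58%), beside 4.31%, a 10-base YY1 motif in 5 (6.58%), beside 0.995%, and the cAMP response element TGACGTCA in 4 (5.26%), beside 2.03%. The last were Cycs, Ndufa10, Ndufb2 and Uqcrfs1. None of Cyct, Cox6b2 and Cox7b2 held any of these motifs in this window, nor did most of the other members, Cox6b1 among them. Each of these motifs holds CG, and the promoters of members other than testis isoforms had more CG than all promoters (median 20 against 7). The shares were not matched for CG content.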

How the data were processed

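Values deposited by the authors were GC-RMA signal intensities, background-corrected, normalized across arrays and summarised per probe set on a linear scale, and were taken to log2. The table held 45037 probe sets, and array medians ran from 11.1 to 12.7. Members were read from the probe set with the highest mean. The 8 names of the rule seen only on probe sets with several symbols, such as Ndufa11, and Cox7b were not analysed, so the planned pair of Cox7b2 and Cox7b was not run.

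limma 3.58.1 in R 4.3.3 fitted all 8 fractions of the 20 arrays over the 22396 probe sets with log2 of at least 5 in at least 2 arrays (12 residual and 3.69 prior degrees of freedom). Tests were two-sided with Benjamini-Hochberg adjustment at 0.05, and the contrast of late and early fractions weighted fractions equally. The limma fit was tested on simulated data with known changes. Pairs used exact permutation in scipy 1.17.1. The precision is limited by the number of arrays.

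Members and lists were chosen with earlier results of these data known. Named members were the isoform pairs, subunit c, X-linked and Sdh genes, and the 3 largest rises and falls past the test per class and comparison. Others named by count were chosen after their values were seen. The project of each array came from the study's supplement, whose signals equalled the deposited ones for 20 of 20 arrays.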

Additional observations from a re-analysis of the deposited data

Results flagged for a closer look

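Of 92 groups of 4 arrays examined over 46 named members, 6 held an array far from its companions, where chance alone marks about 1 in 20 groups. Cox7b2 read 12.22 in round spermatid replicate 4, against 12.85 to 12.91 in the other 3. Cox6b1 read 14.19 in spermatogonia replicate 1, against 13.55 to 13.65. Cox7a1 read 3.13 in round spermatid replicate 4, against 4.12 to 4.15, and Cox7c read 7.43 in spermatogonia replicate 3, against 6.37 to 6.54. Ndufa4l2 read 2.40 in spermatogonia replicate 2, against 1.82 to 1.87, and Cox6a2 read 2.61 in round spermatid replicate 1, against 2.26 to 2.30, both near the floor of the array.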

How the results depend on the processing

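The changes of the 3 pairs kept their direction and passed the test under each alternative that allowed a test: leaving out 1 array gave 6.20 to 6.80 for Cyct against Cycs, 6.62 to 7.14 for Cox6b2 against Cox6b1 and 7.63 to 8.32 for Cox8c against Cox8a. The calls of late against early fractions ran from 53 to 70 over all alternatives. In the single steps, leaving out 1 array gave 0 to 5 calls between pre-leptotene and leptotene-zygotene cells, 5 to 15 from there to mid-pachytene, 5 to 16 from there to diplotene and 2 to 13 from there to round spermatids. With the compared fractions fitted alone, limma called 0, 8, 0 and 2 members in these steps, with 5, 16, 12 and 12 at an unadjusted p under 0.05. These fits called 0%, 25.9%, 2.04% and 23.9% of all probe sets. With no filter on low signal the first of them had 2 calls, and after median centring the last had 8. The cause was not tested.

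With the replicate number as a block, on the 18 arrays that could enter, limma called 29 members between leptotene-zygotene and mid-pachytene cells (9 higher, 20 lower) and 70 in late against early fractions, against 12 and 63 without the block on those arrays. Between leptotene-zygotene and mid-pachytene cells the block took the share of all probe sets called from 29.0% to 40.1%. Deviations of arrays with the same number correlated over 0.1 in 33 of 37 pairs (-0.17 to 0.70), and 14 of 18 arrays correlated best with one of their own number. The labels name no shared animal or batch behind a number and 4 pairs lay at or under 0.1, so the fit without that block was kept. The array project, known from the study's supplement, was not in the main fit either. All 21 pairs of the same project correlated over 0.1 (0.12 to 0.70), and 16 of 18 arrays correlated best with one of the same project. With the array project as a block the counts were 32 (10 higher, 22 lower, beside 40.6% of all probe sets called) and 67.

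Of 57 named changes that passed the test, none turned in direction, and 1549 of their values under the alternatives passed again while 84 did not. Among those that had not passed, 14 values came to pass: Sdhb in 5 alternatives (-0.34 to -0.40), Sdhd in 6 (0.45 to 0.76) and Cox7a2 in 3 (0.39 to 0.54), and Cox4i1 (late minus early) turned to 0.062 after quantile normalization and 0.19 after median centring. Cox7a2l turned to 0.22 after median centring, 0.041 for the mean of its probe sets and 0.055 without spermatogonia, and ran from -0.17 to 0.094 when 1 array was left out. Fractions of 1 or 2 arrays and signals near the floor limit these values, and leaving out arrays or fitting a fraction alone leaves fewer samples. The alternatives without spermatogonia and without the block on the same arrays were chosen after seeing the data.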
